A study of Mus musculus with 6 samples.

Results

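The sites described here are pairs of RBPJ ChIP-seq peaks whose centres almost coincide on interphase and mitotic chromatin. They were chosen by peak position. A peak of the asynchronous list was taken when the nearest mitotic peak centre on the same chromosome lay at most 50 bp away, and that mitotic peak became its partner. The rule took 217 of 5206 asynchronous peaks (4.17%) and, as their partners, 217 of 3227 mitotic peaks (6.72%). F9 cells, a murine embryonal carcinoma line derived from a testicular teratoma, were either left cycling (asynchronous, 95% interphase and 5% mitosis per the labels) or blocked by 1 µg/ml nocodazole, which stops cells in mitosis, over 4 hours and collected by washing loosely attached cells off the dish. The labels name no introduced allele, both populations were fixed with formaldehyde, and both were immunoprecipitated with the same custom rabbit anti-RBPJ antibody. Of 6 libraries in all, counting the inputs, the peak lists examined came from the first immunoprecipitation of each population. The other libraries were not used here, so there were no replicates, no test between populations was possible, and all intervals are exact 95% intervals that cover counting error only.

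RBPJ is the DNA-binding protein through which the Notch pathway acts on its genes. Without Notch signalling it recruits corepressors, and after receptor cleavage the Notch intracellular domain joins it with Mastermind to activate transcription. Many transcription factors leave chromosomes when cells divide, and a factor that stays on mitotic chromatin may mark its sites for the daughter cells. CTCF, whose motif is also described below, binds DNA with many zinc fingers and shapes chromatin loops together with cohesin.

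The lists give a position in mm9 and the authors' score for each peak but no read numbers, so the depth behind a peak is unknown here. Peak width was constant within a list, at 173 bp for asynchronous and 203 bp for mitotic peaks. Scores were compared only within a list, and ranks give tied scores the best rank of the tie. Values of the pairs are set beside those of 208 shifted pairs, in which the nearest mitotic centre lay more than 50 and up to 250 bp away, and beside the 4781 other asynchronous peaks. The lists hold no expression values, so the identity of the cells could not be checked on markers.

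The sequences that carry an RBPJ motif are shown first, because the share with the motif differed between all co-centred and all shifted pairs by more than their intervals. The full motif searched was TTCCCACA or TTCCCACG on either strand. Each line gives 30 bases of mm9 around a motif that lies in the stretch shared by both peaks of a pair, read 5′ to 3′ on the strand of the motif, with the motif in capitals. Hes1, a repressor that is a classical Notch target, and the receptor gene Notch1 belong to the pathway itself. Rara encodes a retinoic acid receptor, Rps2 a protein of the small ribosomal subunit, Apex1 a base excision repair enzyme, and Zfp334 a zinc finger protein.
Hes1 (chr16:30065333-30065362, minus strand): ccaaactttctTTCCCACAgtaactttcag
Notch1 (chr2:26359711-26359740, minus strand): gcagctttcctTTCCCACAagacccgtacc
Rara (chr11:98798786-98798815, plus strand): attctcccagaTTCCCACGgtccggccact
Rps2 (chr17:24857107-24857136, minus strand): atgtccacggaTTCCCACGgcccaggccgc
Apex1 (chr14:51544636-51544665, minus strand): gagtctgcctgTTCCCACGtgggcgattgg
Casc1 (chr6:145159504-145159533, plus strand): acaagccacacTTCCCACAtaaggtacgcc
Zfp334 (chr2:165213816-165213845, plus strand): cggagcggccaTTCCCACGgttctccaaag
Zfp334, second motif (chr2:165213862-165213891, plus strand): caggactacatTTCCCACAgggagttgcgg

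In 7 of 217 pairs the shared stretch held both the RBPJ motif and the core of the CTCF motif. The whole stretch shared by both peaks is shown for the introns of Nav1, which encodes a neuron navigator protein, and Klk10, which encodes a kallikrein-related peptidase, on the plus strand of mm9. Capitals mark the RBPJ motif, which appears as CGTGGGAA where it lies on the minus strand, and the CTCF core, which lies on the minus strand in both and so appears as GCCCTCTAG and GCCCCCTAG.
Nav1 (chr1:137567085-137567242): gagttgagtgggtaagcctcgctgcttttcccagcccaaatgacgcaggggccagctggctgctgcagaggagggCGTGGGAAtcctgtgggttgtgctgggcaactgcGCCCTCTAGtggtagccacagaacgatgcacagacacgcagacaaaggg
Klk10 (chr7:51037908-51038080): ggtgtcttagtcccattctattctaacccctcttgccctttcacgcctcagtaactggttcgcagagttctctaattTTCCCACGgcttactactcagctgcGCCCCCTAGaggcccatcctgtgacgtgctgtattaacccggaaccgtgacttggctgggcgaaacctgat

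The distances describe the rule and are given without a test. The centres of the 217 pairs lay a median of 21 bp apart (interval 18 to 25), with quartiles of 8 and 33 bp and a maximum of 49 bp. In 6 pairs the centres were identical, in 41 they lay within 5 bp, in 64 within 10 bp and in 126 within 25 bp. Counted in steps of 10 bp, the number of pairs was 64, 44, 41, 41 and 27 up to the limit, and 23, 24 and 20 in the next steps beyond it. The count therefore fell gradually, and the limit of 50 bp did not separate distinct groups. The pairs just inside the limit were those at S1pr3, Iffo1 and Uqcrc1, each at 49 bp, and the nearest outside it were those at Mzt2 at 51 bp and at Fbrsl1 and Rimklb at 52 bp. In 101 pairs the mitotic centre was shifted toward higher coordinates and in 110 toward lower ones, so neither side prevailed. All 217 pairs were mutual, in that each peak was the nearest of the other list to its partner. The histogram of signed offsets shows these distances.

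**Figure D1:**
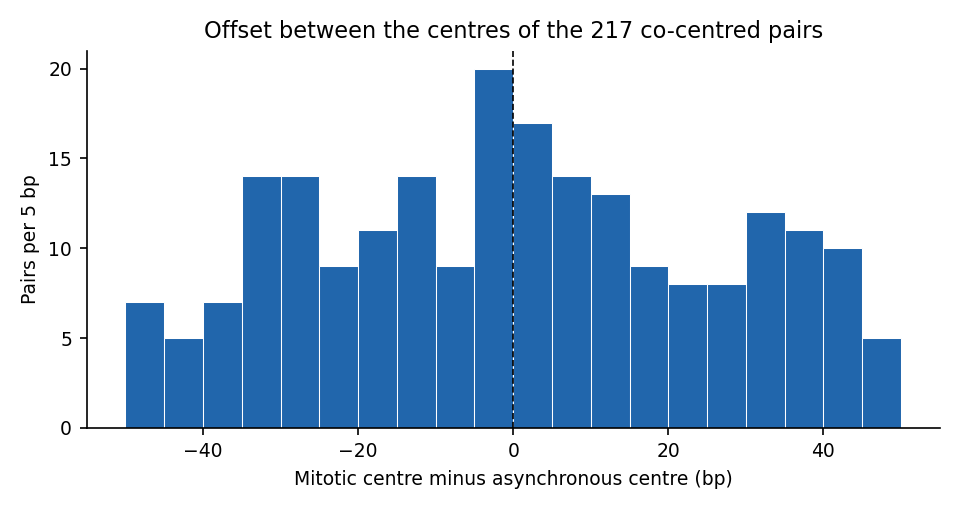
Signed distance from the asynchronous to the mitotic peak centre (x axis, bp) against the number of pairs per 5 bp (y axis) for the 217 co-centred pairs; the dashed line marks identical centres. Pairs crowd around 0 and lie on both sides, 101 with the mitotic centre at the higher and 110 at the lower coordinate.

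The full RBPJ motif was found in 38 of the 217 asynchronous peaks of the pairs (17.5%, 12.7 to 23.2%), against 9.09% of all asynchronous peaks. It was found in 15 of 208 asynchronous peaks of shifted pairs (7.21%, 4.09 to 11.6%) and in 420 of 4781 others (8.78%, 8.0 to 9.62%). The intervals of the co-centred and the shifted pairs did not overlap, and neither did those of the co-centred pairs and the other peaks. In the mitotic peaks of the pairs the motif was found in 37 of 217 (17.1%, 12.3 to 22.7%), against 3.53% of all mitotic peaks, 9 of 208 mitotic partners of shifted pairs (4.33%, 2.00 to 8.05%) and 68 of 2802 other mitotic peaks (2.43%, 1.89 to 3.07%). Since the rule makes both peaks of a pair share 139 to 173 bp of the same sequence, their nearly equal counts follow from the selection. The stretch shared by both peaks of a pair, with a median width of 167 bp, held it in 35 pairs (16.1%, 11.5 to 21.7%). Windows of the asynchronous peak width 2 kb to either side of the pairs held it in 6 of 434 cases (1.38%, 0.509 to 2.98%).

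The motif share did not rise steadily toward coinciding centres. Among asynchronous peaks it was 15.6% of 64 pairs at 0 to 10 bp, 21% of 62 pairs at 11 to 25 bp and 16.5% of 91 pairs at 26 to 50 bp, with intervals that overlapped widely. Beyond the limit it was 7% of 100 pairs at 51 to 100 bp, 7.41% of 108 at 101 to 250 bp and 5.84% of 137 at 251 to 1000 bp. The plot of motif shares by distance shows these values with those of the mitotic peaks.

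**Figure D2:**
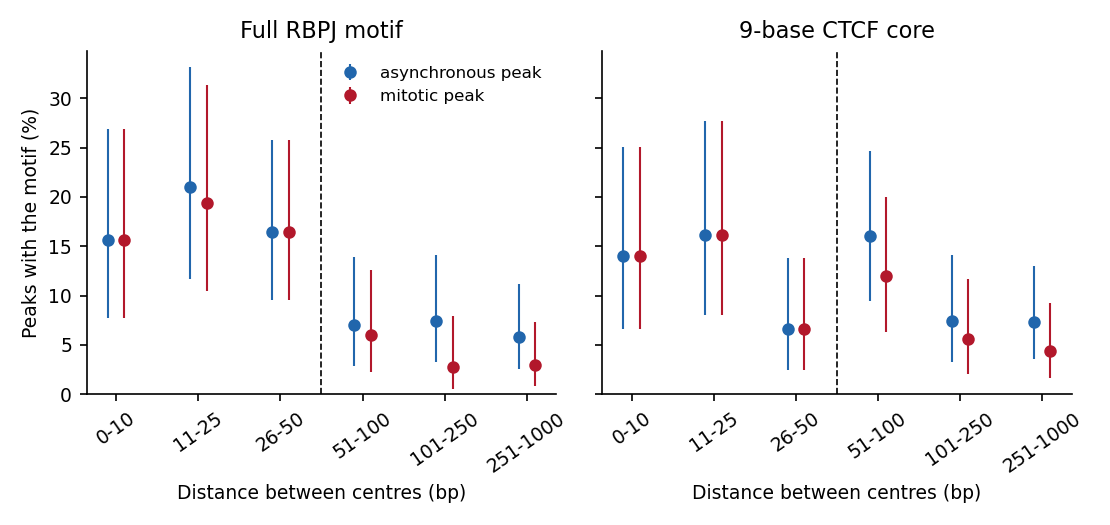
Share of peaks with the full RBPJ motif (left) or the 9-base CTCF core (right) on the y axis (%) by the distance between the centres of the closest asynchronous and mitotic peaks (x axis, bp); points are shares, bars exact 95% intervals, blue the asynchronous and red the mitotic peak, and the dashed line the limit of 50 bp. RBPJ shares lie at 15.6 to 21% left of the line in both peaks and at 2.78 to 7.41% right of it, while CTCF shares of 14.1, 16.1 and 6.59% left of the line meet 16.0, 7.41 and 7.30% right of it in asynchronous peaks.

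The motif share was also read within genomic class and score band. At promoters, 21 of 100 co-centred asynchronous peaks held it (21%, 13.5 to 30.3%), against 6 of 84 shifted ones (7.14%, 2.67 to 14.9%) and 102 of 1445 others (7.06%, 5.79 to 8.50%), and the interval overlapped that of the shifted but not that of the other peaks. Outside promoters the shares were 17 of 117 (14.5%, 8.70 to 22.2%), 9 of 124 (7.26%, 3.37 to 13.3%) and 318 of 3336 (9.53%, 8.56 to 10.6%), and these intervals overlapped. The upper quartile of asynchronous scores held the motif in 24 of 119 co-centred peaks (20.2%, 13.4 to 28.5%) and in 178 of 1175 others (15.1%, 13.1 to 17.3%), which overlapped. Below that quartile the shares were 14 of 98 (14.3%, 8.04 to 22.8%) and 242 of 3606 (6.71%, 5.92 to 7.58%), which did not overlap. Shifted pairs held it in 9 of 86 (10.5%, 4.90 to 18.9%) in the upper quartile and in 6 of 122 (4.92%, 1.83 to 10.4%) below it. Within either class and either score band the intervals of co-centred and shifted pairs therefore overlapped, and only those over all pairs did not.

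Both forms of the motif contributed equally, with TTCCCACA and TTCCCACG each in 20 of the 217 asynchronous peaks (9.22%, 5.72 to 13.9%). The shifted pairs held TTCCCACA in 4 of 208 (1.92%, 0.526 to 4.85%) and TTCCCACG in 11 (5.29%, 2.67 to 9.27%). The interval for TTCCCACA therefore did not overlap between co-centred and shifted pairs, and that for TTCCCACG did. The shorter word TTCCCA, which is contained in the full motif, was found in 96 co-centred asynchronous peaks (44.2%, 37.5 to 51.1%), against 35.9% of the asynchronous list and 80 of 208 shifted pairs (38.5%, 31.8 to 45.4%). Of the 217 shared stretches, 2 held 2 full motifs. Those at Zfp334 lay 46 bp apart, and those at Fam100a lay 82 bp apart, with both motifs on the same strand in each.

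The motif lay near the centres but seldom exactly on them. In the 33 pairs with a motif in the shared stretch whose positions are reported, the nearest motif was a median of 28.5 bp (interval 14.5 to 37.5) from the asynchronous centre and 30.5 bp (15.5 to 37.5) from the mitotic centre. It was closer to the asynchronous centre in 18 pairs, closer to the mitotic centre in 13 and equally far in 2. Both centres lay within 25 bp of the motif in 8 pairs and more than 50 bp from it in 3. Hes1 was one of the latter, with its motif 75.5 bp from the asynchronous and 52.5 bp from the mitotic centre. At Rps2 the motif was 2.5 and 10.5 bp away, and at Notch1, whose centres lay 1 bp apart, it was 47.5 and 46.5 bp away. The scatter of motif positions shows all of them.

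**Figure D3:**
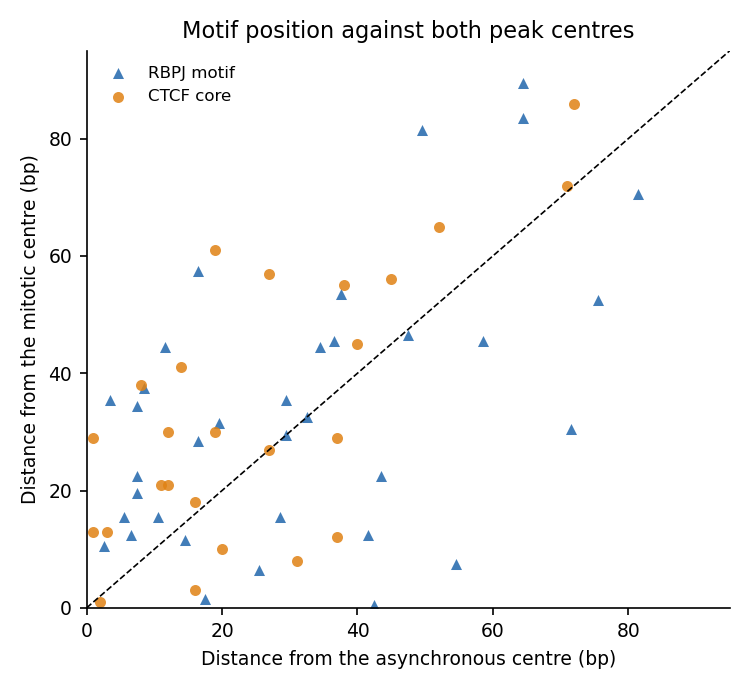
Distance of each motif in the shared stretch from the asynchronous (x axis, bp) and the mitotic peak centre (y axis, bp), with 35 RBPJ motifs as blue triangles and 25 CTCF cores as orange circles; the dashed line marks equal distances. Motifs scatter on both sides of the line, and no motif lies more than 89.5 bp from either centre.

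Of the 35 pairs with an RBPJ motif in the shared stretch, 20 were at promoters (57.1%, 39.4 to 73.7%). The promoter share of all 217 pairs, 46.1%, lay within that interval. Another 9 were in introns and 4 in intergenic sequence. The median scores of the 35 were 15.2 (13.5 to 20.3) in the asynchronous and 11.6 (10.9 to 13.1) in the mitotic list. The 182 pairs without it had medians of 14.2 (13.1 to 14.8) and 11.6 (10.9 to 12.4), with overlapping intervals. Scores ran from 10.1 to 32.9 and from 10.2 to 19.7 among the 35. The retinoic acid receptor gene Rara had scores of 27.4 and 18.9, which are rank 61 of the asynchronous and rank 40 of the mitotic list, 231 bp upstream of its start. Atp5k, a subunit of the mitochondrial ATP synthase, had 25.3 and 15.3 at ranks 85 and 100. Both of these sites ranked within the first 100 of each list.

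Nav1 had 31.7 and 10.9, at ranks 33 and 1099, and Rps2 had 29.1 and 11.6, at ranks 50 and 662. Casc1 showed the opposite order, with 15.2 at rank 825 of the asynchronous list and 19.7 at rank 32 of the mitotic list. Further promoters with the motif were those of the repair gene Apex1 (20.3 and 11.6), the zinc finger gene Zfp334 (22.0 and 12.4), Cpt1b, which encodes a mitochondrial fatty acid importer (16.0 and 10.9), the circadian regulator Dbp (13.5 and 10.9), the splicing helicase gene Dhx8 (12.7 and 10.2) and the kinetochore gene Cenpq (10.6 and 10.2), each with the asynchronous score first. The motif in the RNA-binding protein gene neighbourhoods of Mex3a and Hnrnph1 lay away from promoters, 10166 and 5473 bp upstream of the nearest start, with scores of 22.8 and 13.8 at Mex3a and 11 and 10.9 at Hnrnph1.

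The 9-base CTCF core was searched as CCAGAGGGC, CCAGATGGC, CCAGGGGGC, CCAGGTGGC, CTAGAGGGC, CTAGATGGC, CTAGGGGGC or CTAGGTGGC on either strand. It was found in 25 of 217 asynchronous peaks of the pairs (11.5%, 7.60 to 16.5%), against 8.13% of the asynchronous list, and in 25 of 217 mitotic peaks, against 4.37% of the mitotic list. Shifted pairs held it in 24 of 208 asynchronous (11.5%, 7.53 to 16.7%) and 18 of 208 mitotic peaks (8.65%, 5.21 to 13.3%). The intervals of co-centred and shifted pairs overlapped in both lists. Windows 2 kb away held it in 8 of 434 cases (1.84%, 0.799 to 3.60%). All 25 pairs held a core in the stretch shared by both peaks.

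Of the 25 pairs with the core, 7 were promoters (28%, 12.1 to 49.4%), 9 intronic and 6 intergenic, while 57.1% (39.4 to 73.7%) of pairs with the RBPJ motif were promoters, with overlapping intervals. In the 24 whose positions are reported, the core lay a median of 19 bp from the asynchronous and 29 bp from the mitotic centre, and it was closer to the asynchronous centre in 17, closer to the mitotic centre in 6 and equally far in 1. The highest asynchronous scores among them were those of the Nav1 and Klk10 introns (31.7 and 29.5), the Dux promoter (27.0), an intergenic site near Gm266 (25.8), Atp5k (25.3), the Msrb3 intron (21.5), the promoter of the cytoskeletal septin gene Sept9 (20.3) and Mlf2 (18.2). Their mitotic scores were 10.9, 13.8, 37.9, 13.1, 15.3, 13.1, 15.3 and 10.9 in the same order. Without the first base of the core 48 of 217 asynchronous peaks held it (22.1%, 16.8 to 28.2%), against 51 of 208 shifted (24.5%, 18.8 to 30.9%) and 939 of 5206 in all (18%, 17.0 to 19.1%). This form was chosen after seeing the data.

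Both motifs occurred in 7 shared stretches (3.23%, 1.31 to 6.53%), and neither in 164 (75.6%, 69.3 to 81.1%). These counts and the spacings below were not taken for shifted pairs or the whole lists, so no difference is read from them. In the 6 of the 7 whose positions are reported, the middles of the RBPJ motif and the CTCF core lay 14.5 bp apart at Sept9, 25.5 bp at Klk10, 29.5 bp at Atp5k, 31.5 bp at Msrb3, 34.5 bp at Nav1 and 110.5 bp at Fads2, a fatty acid desaturase gene. Thus 5 of the 6 had both motifs within 35 bp. The motifs were on opposite strands in the first 4 and on the same strand at Nav1 and Fads2.

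A further word was chosen after the data were seen, by counting 10-base palindromes in the co-centred asynchronous peaks. The word picked, TCTCGCGAGA, was in 6 of 217 (2.76%, 1.02 to 5.92%), a share that describes the choice. It was in 0 of 208 shifted asynchronous peaks (exact interval up to 1.76%) and in 19 of 4781 others (0.397%, 0.239 to 0.620%). All 6 pairs were promoters, and among promoters the shares were 6 of 100 co-centred and 18 of 1445 other peaks (1.25%, 0.740 to 1.96%). Of 7 mitotic peaks with the word, 5 belonged to co-centred and 2 to shifted pairs, and none of the 2802 other mitotic peaks held it. The co-centred partners share most of the sequence from which the word was picked, so this count partly follows from the choice. The 6 genes were Ergic2, Rpl26, Psmd5, Cct5, Rps19 and Mettl16, which include genes for ribosomal proteins, a proteasome subunit assembly factor and a chaperonin subunit. The windows below show the word in capitals on the plus strand for the 5 in which it lies in the shared stretch.
Rpl26 (chr11:68715031-68715060): cgctccgagacTCTCGCGAGAtctcgcggc
Psmd5 (chr2:34726488-34726517): gcctctctgaaTCTCGCGAGAtcttacgga
Psmd5, second word (chr2:34726534-34726563): gatctgtcaagTCTCGCGAGAtcctttctc
Cct5 (chr15:31531526-31531555): ccgcacctcccTCTCGCGAGAggacgcaga
Rps19 (chr7:25669592-25669621): gcactccgaaaTCTCGCGAGActcgacgcc
Mettl16 (chr11:74584309-74584338): taagtcaaaagTCTCGCGAGAgtagtctgt

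The scores of these 6 were modest, from 11 at Mettl16 to 17.3 at Ergic2 in the asynchronous list and from 10.2 to 13.8 in the mitotic list. The first 8 bases of the word, TCTCGCGA on either strand, were found in 8 co-centred asynchronous peaks (3.69%, 1.60 to 7.13%), 0 of 208 shifted and 35 of 4781 others (0.732%, 0.510 to 1.02%). This form too was chosen after seeing the data. The 8 include the 6 pairs with the longer word, so their share describes the choice as well. The added pairs were at the gene of the transcription elongation kinase Cdk12 (32.9 and 21.1, rank 27 in both lists) and upstream of the dynein heavy chain gene Dync1h1 (37.1 and 18.9, ranks 14 and 40). Both belong to the 10 pairs with the highest asynchronous scores.

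Other promoter words were compared with both lists. In asynchronous peaks of the pairs, the NRF1 word GCGCATGCG was in 6 of 217 (2.76%, 1.02 to 5.92%). Of the shifted pairs 1 of 208 held it (0.481%, 0.0122 to 2.65%), and of the others 45 of 4781 (0.941%, 0.687 to 1.26%). The interval of the co-centred pairs overlapped both. The E-box CACGTG was in 22 (10.1%, 6.46 to 14.9%) against 8.72% of the list, and the CCAAT box of NFY with C or G and then A or G after it in 25 (11.5%, 7.60 to 16.5%) against 8.28% of the list. The word CCCAGNATG, part of the motif of ZNF143 and THAP11, was in 2 pairs (0.922%, 0.112 to 3.29%) against 2.02% of the list, and the ETS word CCGGAAGTG was in none (exact interval up to 1.69%). In mitotic peaks of the pairs the shares lay further from those of their list, with the NFY box in 34 of 217 (15.7%, 11.1 to 21.2%) against 8.89% (7.93 to 9.93%), the E-box in 23 (10.6%, 6.84 to 15.5%) against 4.31% (3.63 to 5.07%) and the NRF1 word in 7 (3.23%, 1.31 to 6.53%) against 0.372% (0.192 to 0.649%). Mitotic partners of shifted pairs held them in 22 (10.6%, 6.75 to 15.6%), 13 (6.25%, 3.37 to 10.5%) and 0 of 208 (exact interval up to 1.76%), with intervals that overlapped those of the co-centred pairs. Promoters were also more frequent in the pairs than in the mitotic list, and the part of genomic class in these shares was not tested.

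The co-centred peaks had higher median scores than their lists. In the asynchronous list their median score was 14.4 (13.5 to 15.2), against 12.7 (12.2 to 13.5) for shifted pairs and 11.8 (11.8 to 11.8) for other peaks. In the mitotic list their median was 11.6 (10.9 to 12.4), against 11.6 (10.9 to 11.6) for shifted partners and 10.9 (10.9 to 10.9) for other peaks. There the co-centred interval overlapped that of shifted partners and touched that of other peaks. Taking as the upper quartile all scores at or above the tie that crosses it (26.5% of the asynchronous and 34.0% of the mitotic list), 119 of 217 co-centred peaks (54.8%, 48.0 to 61.6%) lay in it in the asynchronous list and 121 (55.8%, 48.9 to 62.5%) in the mitotic list, and 80 (36.9%, 30.4 to 43.7%) in both. Shifted pairs reached 41.3% (34.6 to 48.4%) and 52.9% (45.9 to 59.8%), so the mitotic intervals of co-centred and shifted pairs overlapped. At the other end, 53 co-centred mitotic peaks (24.4%, 18.9 to 30.7%) had the lowest score of the list, which 42.6% of all mitotic peaks shared. Shifted partners had it in 54 of 208 (26.0%, 20.1 to 32.5%), an interval that overlapped that of the co-centred peaks. Over the 217 pairs, the scores of both lists had a Spearman rho of 0.369, a description over pairs that come from 1 library each.

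**Figure D4:**
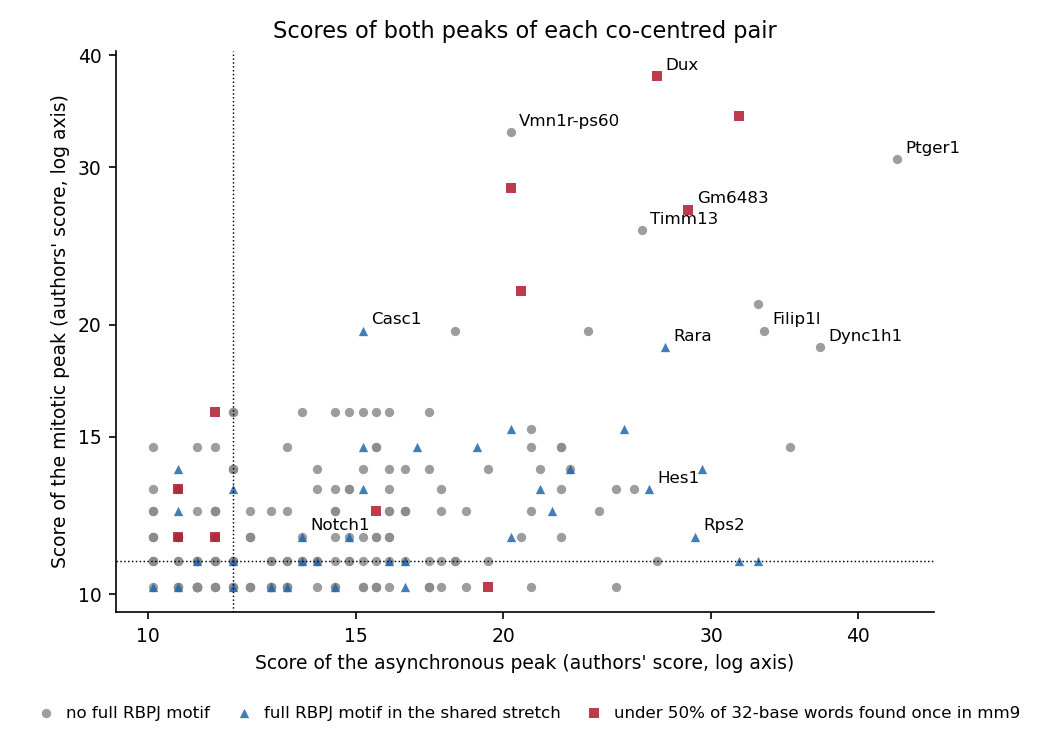
Authors' score of the asynchronous peak (x axis, log scale) against that of the mitotic peak (y axis, log scale) of each of the 217 pairs, each on the scale of its own list; dotted lines are the medians of the lists (11.8 and 10.9), blue triangles have the full RBPJ motif in the shared stretch, and red squares have under 50% of their 32-base words at a single place in mm9. Dux, at 27.0 and 37.9, is the highest pair by mitotic score, and Ptger1, at 43.1 and 30.6, the highest by asynchronous score.

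The strongest pair in the asynchronous list lay in an intron of Gipc1, 4346 bp upstream of the prostaglandin receptor gene Ptger1 (chr8:86186300-86186472), with a score of 43.1 at rank 5 and a mitotic score of 30.6 at rank 16. It ranked first by the worse of both ranks too. It held no full RBPJ motif and no 9-base CTCF core, but the 8-base form of the core in a pair of places, shown here on the plus strand with that word in capitals.
Ptger1, first word (chr8:86186363-86186392): cttaagaaataCAGGTGGCagtcctgggaa
Ptger1, second word (chr8:86186389-86186418): ggaaccaccagCAGGTGGCgcccgagcctg

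Next by asynchronous score came the sites upstream of Dync1h1 (37.1), at the promoter of D6Wsu116e (35 and 14.6), in an intron of Filip1l with identical centres (33.3 and 19.7), at the Cdk12 promoter, in introns of Nav1, Tcte2 (31.7 and 34.2) and Klk10 (29.5 and 13.8), and at the Rps2 promoter. Of the 10 pairs with the highest asynchronous scores, 1 of them not named here, 4 were promoters and 4 held the full RBPJ motif. The 10 pairs with the highest mitotic scores were Dux (37.9), an intron of Tcte2 in 2 places (34.2 and 28.4), a site near the pseudogene Vmn1r-ps60 (32.8), Ptger1 (30.6), Gm6483 (26.9), Timm13 (25.5), a site near Pde6h (21.8), Cdk12 (21.1) and the Filip1l intron (19.7), the last sharing its score with Ppp2r5c, Ptms and Casc1. None of these 10 held the full RBPJ motif, although the tied Casc1 pair did, 3 were promoters, and 1, Dux, held the CTCF core.

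Some of these sites are repeated sequence. Reads with more than 1 best alignment had been left out by the authors, and copies were counted here as exact 32-base words of the peak found elsewhere in mm9. In 188 of 217 asynchronous peaks of the pairs (86.6%, 81.4 to 90.9%) every word was unique, against 91.2% of the list. In 11 (5.07%, 2.56 to 8.89%) under 50% of the words were, against 3 of 208 shifted pairs (1.44%, 0.298 to 4.16%) and 39 of 4781 others (0.816%, 0.581 to 1.11%). The interval of the co-centred pairs did not overlap that of the other asynchronous peaks and overlapped that of the shifted pairs. In the mitotic list the intervals overlapped, with every word unique in 86.2% of their mitotic peaks and 85.8% of the list, and under 50% unique in 5.07% (2.56 to 8.89%) and 2.32% (1.83 to 2.90%). These 11 pairs had median scores of 19.4 and 16.0, and they included 5 of the 10 pairs with the highest mitotic scores and 1 of the 10 with the highest asynchronous scores. Over the whole lists, 8 of the 20 highest mitotic peaks and 1 of the 20 highest asynchronous peaks were of this kind, so both counts lay near those of the lists.

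The 5 were Dux, both Tcte2 sites, Gm6483 and the site near Pde6h, with 38.0, 37.3, 0, 29.6 and 38.0% of unique words. Dux, a homeobox gene that activates early embryonic genes, lies in a tandem array. The stretch shared by both peaks at the stronger Tcte2 site repeats a short unit, as seen on the plus strand, and has no motif to mark.
Tcte2 (chr17:13744997-13745169): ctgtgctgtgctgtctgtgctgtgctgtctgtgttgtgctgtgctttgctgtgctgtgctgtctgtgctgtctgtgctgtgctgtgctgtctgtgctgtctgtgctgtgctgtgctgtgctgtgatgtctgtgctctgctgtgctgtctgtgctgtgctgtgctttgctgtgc
The other 6 were near Atg7 (19.4 and 10.2, no unique word and a median of 59 copies), near Gm13717 in an intron of the Hedgehog transducer gene Smo in 2 places (11.4 and 11.6, 11.4 and 16.0), in an intron of Grk5 (10.6 and 13.1), near Tmem125 (15.6 and 12.4) and near Gm10662 (10.6 and 11.6). None of the 35 pairs with a full RBPJ motif was among the 11. The part of repeats in the scores was not tested. Without the 11, the RBPJ motif share was 17.0% of 206 pairs and the promoter share 48.1%.

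The 6 pairs with the same centre were the introns of Filip1l, Dlgap1 (nearest to Gm16952) and Smo, and the promoters of Apex1, Mlf2, which encodes a myeloid leukemia factor, and Brpf1, which encodes a scaffold of histone acetyltransferases. Their asynchronous scores were 33.3, 14.4, 11.4, 20.3, 18.2 and 13.9, and their mitotic scores 19.7, 10.2, 11.6, 11.6, 10.9 and 10.2. With 1 bp allowed there were 16 pairs, of which 7 were promoters, 3 held the RBPJ motif, 3 the CTCF core and 4 were among the repeated sites. Their scores spanned ranks 23 to 3824 of the asynchronous and 8 to 1852 of the mitotic list, so these pairs included both strong and weak peaks.

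Nearly 1 pair in 2 was a promoter. By the centre of the asynchronous peak, 100 of 217 (46.1%, 39.3 to 53.0%) lay in a promoter, counted from 1 kb before to 100 bp after a start, against 31.3% of the asynchronous list, 84 of 208 shifted pairs (40.4%, 33.7 to 47.4%) and 1445 of 4781 others (30.2%, 28.9 to 31.5%). By the mitotic centre the count was again 100, against 20.4% of the mitotic list and 473 of 2802 mitotic peaks in no pair (16.9%, 15.5 to 18.3%). The class of both centres was the same in 217 of 217 pairs. The share overlapped that of shifted pairs and not that of the other peaks of either list. Introns took 46 pairs (21.2%), intergenic sequence 40 (18.4%), distal promoters up to 10 kb upstream 17 (7.83%), and exons and transcript ends 7 each (3.23%).

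**Figure D5:**
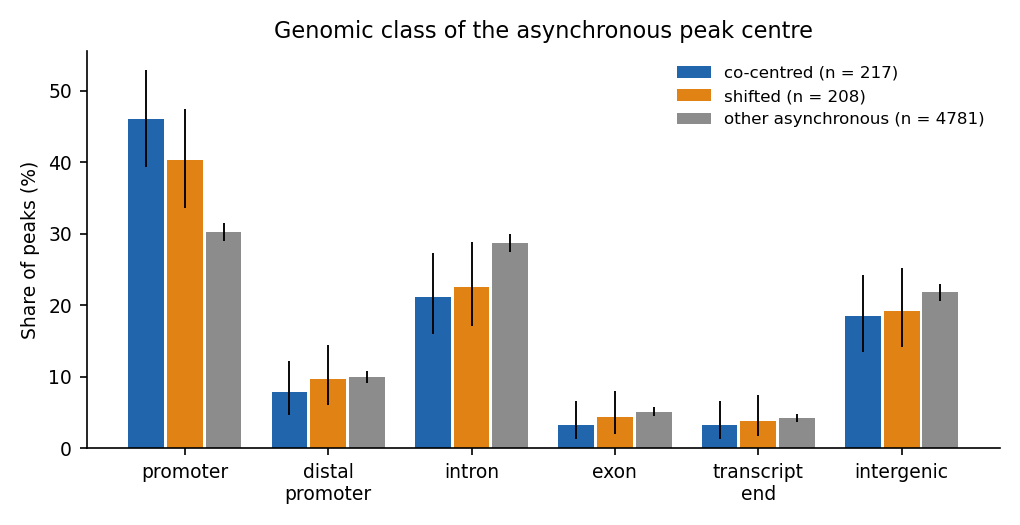
Share of asynchronous peak centres in each genomic class (y axis, %) for the 217 co-centred pairs (blue), 208 shifted pairs (orange) and 4781 other asynchronous peaks (grey); error bars are exact 95% intervals. Promoters make up 46.1% of the co-centred, 40.4% of the shifted and 30.2% of the other peaks.

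The promoter window reaches further upstream than downstream, so most promoter pairs had to lie upstream of a start. The asynchronous centres of promoter pairs lay a median of 122.5 bp upstream of the nearest start (interval 85 to 177), 82 of the 100 upstream and 18 at or downstream of it, and 45 within 100 bp of the start on either side. Starts on both strands within 1 kb were found at 24 of the 100 (24.0%, 16.0 to 33.6%), as at the shared promoter of Apex1 and the tRNA modification gene Osgep. The nearest start belonged to a protein-coding gene in 192 of the 217 pairs (88.5%). Neither of these counts was made for shifted pairs or the whole lists. Promoter pairs had median scores of 14.8 (13.1 to 16.0) and 11.6 (10.9 to 12.4), intronic pairs 13.1 (11.4 to 14.8) and 11.6 (10.9 to 13.1), and intergenic pairs 15.2 (13.1 to 16.5) and 11.3 (10.9 to 12.4), with overlapping intervals in both lists. The share of promoters was 47.9% in the upper quartile of asynchronous scores and 43.9% below it.

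Of 37310 annotated genes, 288 had a start within 10 kb of a co-centred pair (0.772%) and 4875 within 10 kb of any asynchronous peak (13.1%). The lists of genes below were chosen with earlier results of these data known, and the counts are a description. Of 57 genes of the Notch pathway and its targets, 4 had a co-centred pair there, while 21 had any asynchronous and 12 any mitotic peak. Hes1 (chr16:30065337-30065509 and chr16:30065299-30065501) had scores of 26.6 at rank 66 and 13.1 at rank 298, with the asynchronous centre 3 bp upstream of the start and the centres 23 bp apart. Notch1 (chr2:26359592-26359764) had 13.5 and 11.6, at ranks 1381 and 662, 334 bp upstream of the nearest start. Both were promoters with the full RBPJ motif shown above.

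The other genes of this list were weaker and lacked the full motif in the exact forms searched here. The authors mark an RBPJ-binding motif in the Hes7 peak by their own motif search. They also show Timm13 among Notch-responsive genes, and it is counted below with the mitochondrial machinery. Mfng, a Fringe glycosyltransferase that modifies Notch receptors, had 11.8 and 10.9 at -5220 bp from its nearest start, where negative means upstream. The site was classed as intron, which counts introns of any gene, and its shared stretch held the short word TTCCCA. Hes7, a repressor of the segmentation clock, had 11 and 10.2 at -1527 bp, and the latter score is the lowest of the mitotic list. Of the 32-base words of its asynchronous peak, 69.7% occurred once in mm9. The shared stretch at Hes7 held the word GTTCGANTC, which was searched as the B box. That word was in 2 of 217 asynchronous peaks of the pairs (0.922%), against 0.423% of the list. Of 40 pluripotency genes none had a co-centred pair, while 25 had an asynchronous and 10 a mitotic peak, and 2 had a shifted pair. None of 209 developmental transcription factor genes had one either, with 38, 29 and 3 genes in the same order, nor did any of 76 histone genes, with 48, 13 and 6. Since 288 genes had a pair for 4875 with an asynchronous peak, counts of 0 in lists of this size are not read as an absence.

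Of 84 cytosolic ribosomal protein genes 7 had a co-centred pair within 10 kb, with Rps2 (29.1 and 11.6), Rpl26 (16.0 and 11.6), Rpl5 (15.6 and 10.2) and Rps19 (12.7 and 10.2) within 1 kb of a start, and 32 of the 84 had an asynchronous peak. The 7 genes shared 6 pairs. Of 222 genes of the mitochondrial machinery 7 had one, with Timm13, a chaperone of protein import (26.2 and 25.5), Atp5k, the respiratory complex III gene Uqcrc1 (16.0 and 10.2), the import receptor gene Tomm20 (15.2 and 16.0) and the cysteinyl-tRNA synthetase gene Cars2 (14.8 and 13.1) within 1 kb. Timm13 was at ranks 70 and 20, while those 4 ribosomal protein genes lay at mitotic ranks of 662 to 1852. Among 88 genes of tRNA synthetases and translation factors 4 had one, with Eif5a (16.0 and 11.6) and Qars (11 and 10.2) within 1 kb, and among 164 RNA processing genes 4 had one, with Snrpa (14.4 and 12.4), Dhx8 and Prpf38a (11.4 and 10.9) within 1 kb.

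The remaining lists gave few sites. Of 435 zinc finger genes 8 had a co-centred pair, 6 of them within 1 kb of a start, with Zfp334 (22.0 and 12.4) the highest, then Zfp513 (17.3 and 10.9), Zfp609 (17.3 and 10.2) and Zfp384 (14.4 and 12.4). Of 76 cell cycle and mitosis genes 2 had one, namely Anapc5, a subunit of the anaphase-promoting complex (21.1 and 12.4, 68 bp upstream of the start), and the CDK inhibitor gene Cdkn1b (15.6 and 11.6, 8248 bp downstream). Orc1 of 39 DNA replication genes (11.4 and 10.9), Psmd5 of 52 proteasome genes (15.2 and 10.2), and the Dishevelled gene Dvl2 of 59 Wnt pathway genes (11 and 10.2) were the only ones of their lists, and none of 12 genes of CTCF and cohesin had one. Of 5371 small non-coding RNA genes 31 had a co-centred pair within 10 kb, among them Mir181c and Mir181d (21.1 and 15.3) and Scarna2 (16.0 and 10.9, 17 bp downstream of its start), 420 having an asynchronous peak.

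The asynchronous peaks of the pairs had a median GC content of 56.6% (56.1 to 57.2%), against 56.1% of the list, and a median ratio of observed to expected CpG of 0.497 (0.445 to 0.598), against 0.450 (0.389 to 0.519) in shifted pairs and 0.366 (0.353 to 0.375) in other peaks. Their mitotic peaks had a median GC content of 56.2% (55.7 to 56.7%), against 53.7% of the mitotic list, and a CpG ratio of 0.532 (0.430 to 0.588), against 0.287 (0.279 to 0.296). Mitotic partners of shifted pairs had a GC content of 55.2% (54.7 to 55.7%) and a CpG ratio of 0.429 (0.3625 to 0.478). These intervals touched (GC) or overlapped (CpG) those of the co-centred pairs. Most pairs stood alone, with no other peak of either list within 2 kb in 187 of 217 (86.2%, 80.9 to 90.5%). The same share was not counted for shifted pairs or the whole lists, so no difference is read from it. The co-centred pairs were spread over 174 windows of 1 Mb, of which 141 held 1 pair and the fullest 4, at 88 to 89 Mb of chromosome 12, 108 to 109 Mb of chromosome 4 and 86 to 87 Mb of chromosome 8. Chromosomes 8, 11 and 6 held the most pairs, with 26, 25 and 22. These are 5.02, 6 and 6.96% of their asynchronous peaks, against 4.17% of the whole list. The same chromosomes held 527, 237 and 295 mitotic peaks beside 518, 417 and 316 asynchronous ones, of 3227 and 5206 in all. The part of mitotic peak number in these shares was not tested.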

How the data were processed

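The peak lists hold positions in mm9 and a score per peak. The authors made the deposited score values by aligning reads to unique places with Bowtie 0.12.7, and HOMER was used to find peaks over the input of the same population; the unit of the score is not given in the sources used here, so it was ranked within its list only. Per the labels, the series has 6 libraries, and 2 lists, 1 per population, were used. Centres were paired with numpy 2.4.6 and pandas 2.3.3 under Python 3.11.15; sequence was read from NCBIM37, which is mm9, with pysam 0.24.0; classes and gene names came from GENCODE vM1; shares have Clopper-Pearson intervals (scipy 1.17.1) and medians order-statistic intervals; plots used matplotlib 3.10.9. Classes were taken in the order promoter (1 kb upstream to 100 bp downstream of a start), transcript end (100 bp upstream to 1 kb downstream), exon, intron, distal promoter (10 kb upstream to 1 kb downstream) and intergenic. Copies were counted as exact 32-base words on both strands. The steps were tested on simulated data.

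The members and gene lists were chosen with earlier results of these data known. Named were members within 10 kb of Notch and pluripotency genes, the 10 highest in either list and by the worse rank, and the 8 highest with the CTCF core. Those with the same centre and the 3 nearest the limit on either side were named too. Of the pairs with the full RBPJ motif and of the members of the gene lists only some were named. Sites with the palindrome or repeated words were named after their values were seen. Chromosome 18 holds 6 members, counted but not reported here by name or sequence. Alternatives were the pairing distance, score minimum, sex chromosomes, promoter definition, motif forms and window.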

Additional observations from a re-analysis of the deposited data

How the results depend on the processing

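No paired analysis was possible because each population had a list for replicate 1 only, and for the same reason no replicate could be left out. Of 81 values computed under 20 alternatives, 67 stayed within the interval of the reported share or within 1.5 times the reported number of pairs; 6 of the 20 were chosen after seeing the data. The number of pairs was 126 at a distance of 25 bp and 127 with both scores at or above the median of their list. The share in the upper quartile of scores was then 78.7% (asynchronous) and 75.6% (mitotic), 73.8% (mitotic) without the lowest mitotic score, and 64.9% and 74.0% without the lowest score of either list, as these alternatives remove low scores. The RBPJ motif share was 41.9% with the word TTCCCA, 7.83% with TTCCCACA only and 9.22% with TTCCCACG only. The CTCF core share was 41.5% with up to 1 mismatch and 21.7% with the 8-base form, and the ZNF143/THAP11 share was 22.1% with up to 1 mismatch and 0% at 25 bp. With a mismatch allowed, asynchronous peaks of the pairs held the CTCF core in 42.9% and those of the whole list in 43.0%. The promoter share ran from 45.2 to 48.8%. Leaving out soft-masked repeats was not run, since the genome used holds no repeat mask. With 1 list per population, variation between cultures, arrests and immunoprecipitations is not covered by any interval, and the size of the pair set limits small shares.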
